A study of Mus musculus with 14 samples.

Results

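Slide 3 is 1 of the 5 glass slides that carried the arrays of a mouse liver study, and it held 3 of the 14 arrays: control replicate 3, furan 1 mg/kg replicate 4 and furan 8 mg/kg replicate 2. These 3 arrays were chosen by their scores on the first principal component of the log ratios, on which they lay apart from the other 11. The difference between slide 3 and the other slides is therefore described here and not tested. Each array is the liver of 1 mouse, and slide 3 was scanned alone on the first scan day. Slides 2 and 5 were also each scanned alone, on later days, and slides 1 and 4 shared a day. Effects of the slide, of the scan and of these 3 animals cannot be told apart.

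The mice were females of the B6C3F1 hybrid strain, aged 5 to 6 weeks. Corn oil alone went to the control mice, and the others received furan in corn oil at 1 or 8 mg/kg body weight, by gavage for 3 weeks. All 14 mice, controls included, drank bromodeoxyuridine (BrdU), a thymidine analogue taken up by newly made DNA, for 5 days and were killed 4 h after their final dose. On slide 3 there was 1 mouse of each group; the other slides held 3 of the control group and 4 of each furan dose. Slides 1, 2 and 4 each held 1 mouse of every group, and slide 5 held 1 mouse at each furan dose and no control.

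Each array compared liver RNA, carrying the red dye Cy5, with a universal mouse reference RNA carrying the green dye Cy3. The log2 ratio of Cy5 over Cy3 falls when the liver signal falls or when the reference signal rises, so both channels are given below. Most plasma proteins are made by hepatocytes, the parenchymal cells of the liver: albumin, apolipoproteins, protease inhibitors, coagulation factors and complement components are among their most abundant transcripts. A reference RNA pooled from many mouse cell sources holds less of such transcripts than liver does, so their log ratios are high.

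After a filter on dim probes, 21976 features were compared, 13773 of them with a gene symbol. Of 55681 probes, 27261, 28272 and 29498 gave a liver signal well above background on the slide 3 arrays in dose order, against 23065 to 29850 on the others. All 16 hepatocyte markers were measured. The mean Cy5 intensity of slide 3 was 2906 on the control array, 3178 at 1 mg/kg and 3176 at 8 mg/kg, against 1357 to 2918 with a median of 1648 on the other slides. The mean Cy3 intensity was 2794, 2405 and 2709 on slide 3, against 1705 to 2728 elsewhere. Slide 3 was bright in the red channel, and the arrays that came nearest to it were those of slide 4 at 1 and 8 mg/kg, with 2886 and 2918.

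With the dose group means removed, the first component explained 37.5% of the variance, of which the slides accounted for 94.8%. The slide 3 arrays scored 31.4, 30.5 and 31.8 in dose order, against a range of -22.1 to 8.22 with a median of -11.0 over the other 11. These scores are the values by which the arrays were chosen.

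A feature was counted as set apart when its log ratio on slide 3, with dose in the model, differed by at least 1.5-fold from the other slides and each slide 3 array lay beyond every array of its own dose group in that direction. On slide 3, 807 features were higher by this rule, 3.67% of all tested, and 114 were lower, 0.519%. These shares belong to the contrast by which the arrays were picked, and nothing is read from them. With the same rule the slide 1 arrays had 14 features higher and 12 lower, the slide 2 arrays 32 and 23, and the slide 4 arrays 2 and 10. With slide 3 left out of the comparison these counts were 13 and 2 for slide 1, 51 and 4 for slide 2, and 36 and 56 for slide 4. Slide 5, with no control array, was not counted, because it could not be compared in all 3 dose groups. At a threshold of 2-fold, slide 3 had 192 features higher and 0 lower. The smallest difference inside the 1.5-fold threshold was 0.5851 and the largest outside it 0.5846 (log2). The median difference over all features was 0.05.

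Hepatocyte transcripts were among those with the largest differences. Of the 16 hepatocyte markers, 15 were higher on slide 3 by the rule, with a median difference of 1.34. The mean log ratio of these 16 genes was 8.44, 8.44 and 8.22 on slide 3 in dose order, against 6.92 to 7.56 with a median of 7.02 on the other slides. The groups did not overlap, and slide 4 was the nearest.

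**Figure D1:**
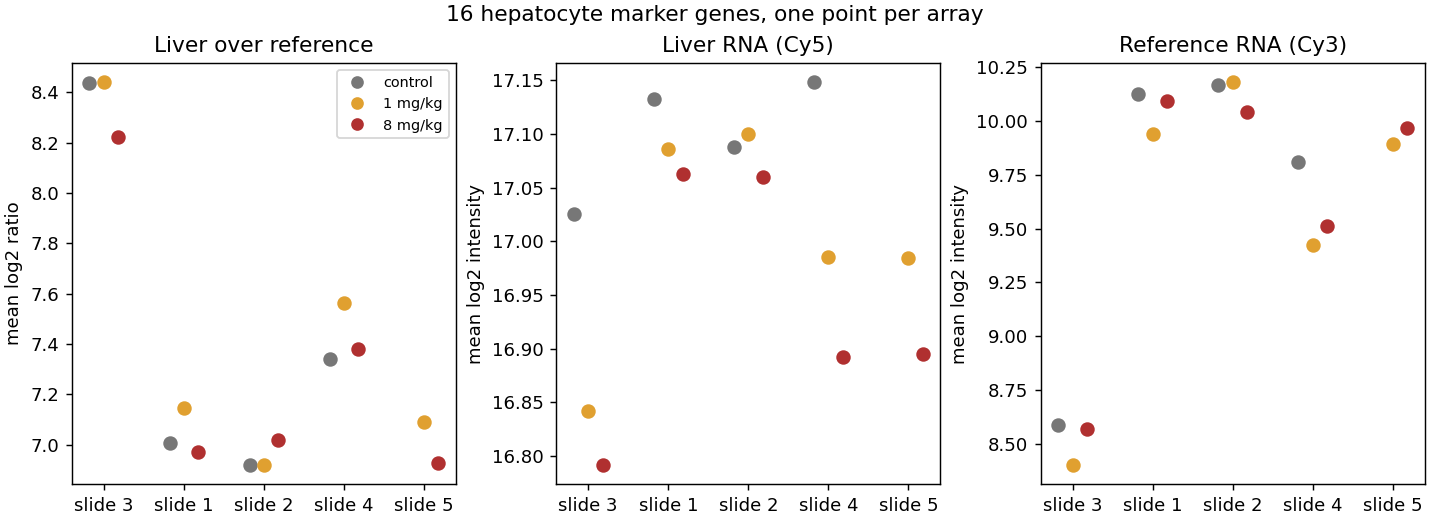
Mean of 16 hepatocyte markers on each array, by slide, with slide 3 at the left; the panels give the log2 ratio of liver over reference, the log2 liver (Cy5) level and the log2 reference (Cy3) level, and each point is 1 array coloured by dose. The slide 3 ratios of 8.22 to 8.44 lie above all others, their Cy5 levels of 16.79 to 17.03 lie within or below the other slides' range, and their Cy3 levels of 8.40 to 8.59 lie below all others.

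The rise of these ratios on slide 3 went with reference spots dimmer than on the other slides. The mean Cy3 level of the 16 markers was 8.59, 8.40 and 8.57 (log2) on slide 3, against 9.42 to 10.18 on the other slides. Their mean Cy5 level was 17.03, 16.84 and 16.79, against 16.89 to 17.15. In the liver channel slide 3 therefore lay within or below the range of the other slides, and in the reference channel below it.

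Albumin (Alb), the main plasma protein, had log ratios of 7.49, 7.62 and 7.15 on slide 3 in dose order, against 5.61 to 6.53 with a median of 5.87 on the other slides. Its reference spot read 3076, 2119 and 3126 units of raw Cy3 intensity on slide 3, against 3590 to 13805 with a median of 9106. Its liver spot read 422552, 418778 and 405607 units of Cy5, against 287845 to 430917. The Alb reference spots of slide 3 were all dimmer than any other, while its liver spots were within the range of the others.

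Apoe, which carries lipoprotein remnants to hepatic receptors, differed by 1.84 ± 0.24 (log2, SE of the fit), with log ratios of 9.07, 9.18 and 8.93 on slide 3, against 6.85 to 7.87. Normalized channel levels divide such a difference into a liver part and a reference part. For Apoe the liver level differed by -0.41 and the reference level by -2.25. Both channels were lower on slide 3, the reference far more.

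The other leading genes were of the same kinds. Protease inhibitors and carriers of plasma were Serpina3k at 1.77, Serpina1d at 1.74, the fetuin gene Ahsg at 1.71, Serpina1a at 1.66, the transferrin gene Trf at 1.61, kininogen Kng1 at 1.58 and the vitamin D binding protein gene Gc at 1.55. Mbl2, a lectin that starts complement activation, differed by 1.67, and Mup19, a major urinary protein, by 1.56. Enzymes were the alcohol dehydrogenase Adh1 at 1.57, Cyp2e1 at 1.64, Sult2a7 at 1.64 and Cyp4a12a at 1.58. In 12 of these 14 genes, Apoe included, the reference part lay between -2.25 and -1.71 and the liver part between -0.52 and -0.15. The exceptions were Sult2a7 and Cyp4a12a. Their reference spots were near background on every array, with raw Cy3 of 27 to 47.5 and 29 to 47. The mean local Cy3 background was 22.2 to 27.6, so a dimmer reference could not be measured in these genes. Probes of the Serpina1, Mup, Sult2a and Cyp4a families can bind transcripts of close paralogs.

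Cyp2e1, the cytochrome P450 that oxidises ethanol and furan, is of interest in a furan study. Its log ratios were 7.81, 8.11 and 7.74 on slide 3 in dose order, against 5.74 to 6.81 with a median of 6.24 elsewhere. Its liver level was 18.21, 18.03 and 17.92 on slide 3, against 18.08 to 18.57. Its reference level was 10.41, 9.92 and 10.18, against 11.55 to 12.62. The ratio was thus higher on slide 3 with a liver level within or below the range of the other mice.

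Counts over gene lists of liver function are given beside the 3.67% of all features that were higher on slide 3 and the median of 0.05. Features of high log ratio were higher far more often: 57.6% with a mean ratio of 4 to 6 on the other slides, and 79.3% above 6. Median ratios of the liver function lists ran from 4.38 for pericentral genes to 6.64 for hepatocyte markers. The lists were not tested against features of like ratio. Among apolipoproteins 15 of 16 were higher with a median of 1.17; Apoc1 and Apoc3, which govern lipoprotein turnover, were both at 1.43. Of complement and coagulation genes 29 of 34 were higher with a median of 1.01, and of acute phase proteins 21 of 31 with a median of 0.91. Xenobiotic cytochrome P450s had 18 of 25 higher with a median of 0.90, among them Cyp2c29 at 1.17, Cyp2f2 at 1.23 and Cyp1a2 at 1.00. None of these lists held a lower gene.

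Genes of both zones of the liver lobule were among those set apart. Periportal hepatocyte genes had 14 of 23 higher with a median of 0.75, such as Cps1 at 1.27, the entry enzyme of the urea cycle. Pericentral genes had 10 of 22 higher with a median of 0.84. Amino acid breakdown and the urea cycle had 21 of 38 higher with a median of 0.69, and bile acid synthesis and transport 10 of 26 with a median of 0.66. In each of these 4 lists the median reference part was larger in size than the median liver part: -0.60, -0.50, -0.61 and -0.37 for the reference, against 0.02, 0.10, 0.01 and 0.18 for the liver.

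Counts over housekeeping and stress lists are set beside the same 3.67% of all features and median of 0.05. Median ratios of these lists ran from -1.09 for ribosomal proteins to 1.28 for NRF2 targets. In bins of mean ratio from -2 to 2, 0.04% to 6.02% of features were higher, so nothing is read from these small counts. Cytosolic ribosomal proteins had 1 of 49 higher with a median of 0.24, the mitochondrial respiratory chain 0 of 36 with 0.22, proteasome subunits 0 of 31 with 0.10 and heat shock proteins 0 of 21 with 0.06. Targets of NRF2, a transcription factor activated by electrophiles, had 2 of 36 higher with a median of 0.14. The p53 targets had 0 of 26 higher with a median of -0.02. For 8 mg/kg against control on the other slides, 15 and 12 genes of these lists passed (limma, adjusted p under 0.05), where 1.78% of all features did.

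**Figure D2:**
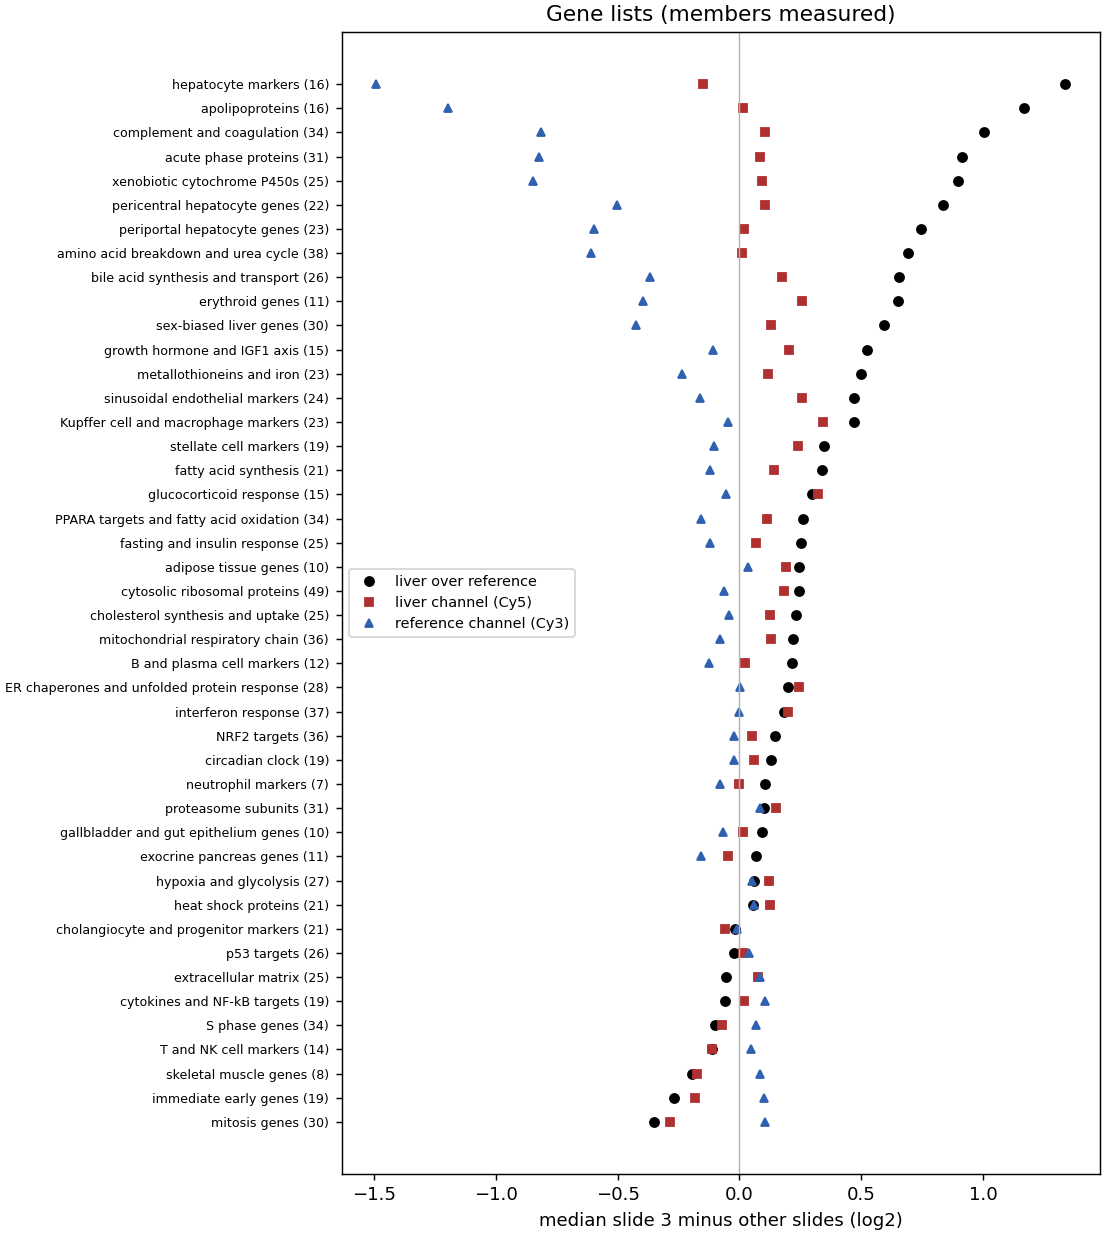
Median log2 difference between slide 3 and the other slides for each of 44 gene lists, with the median liver part and reference part of the same lists. Hepatocyte markers lead at 1.34 with a reference part of -1.49, and mitosis genes are lowest at -0.35.

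The size of the difference followed the log ratio itself. Features with a mean log ratio above 6 had a median difference of 0.94 on slide 3, and 203 of 256 were higher by the rule, 79.3%. Between 4 and 6 the median was 0.68 with 57.6% higher, and between 2 and 4 it was 0.31 with 17.5% higher. Between 0 and 1 it was 0.07. At the other end, 113 features with a mean at or below -4 had a median of -0.35, and 15 of them were lower, 13.3%. Features with a mean below -2 had median deviations of -0.15, -0.20 and -0.24 on the slide 3 arrays, which lay inside the -0.42 to 0.20 of the other arrays. At the high end, above 6, the deviations were 1.03, 0.90 and 0.94 on slide 3, against -0.29 to 0.39. The slope of an array on the mean was 1.09 to 1.12 on slide 3, against 0.951 to 1.06 on the others. Across the 21976 features the difference correlated with the ratio at r = 0.62, a description across genes that share arrays and depth.

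**Figure D3:**
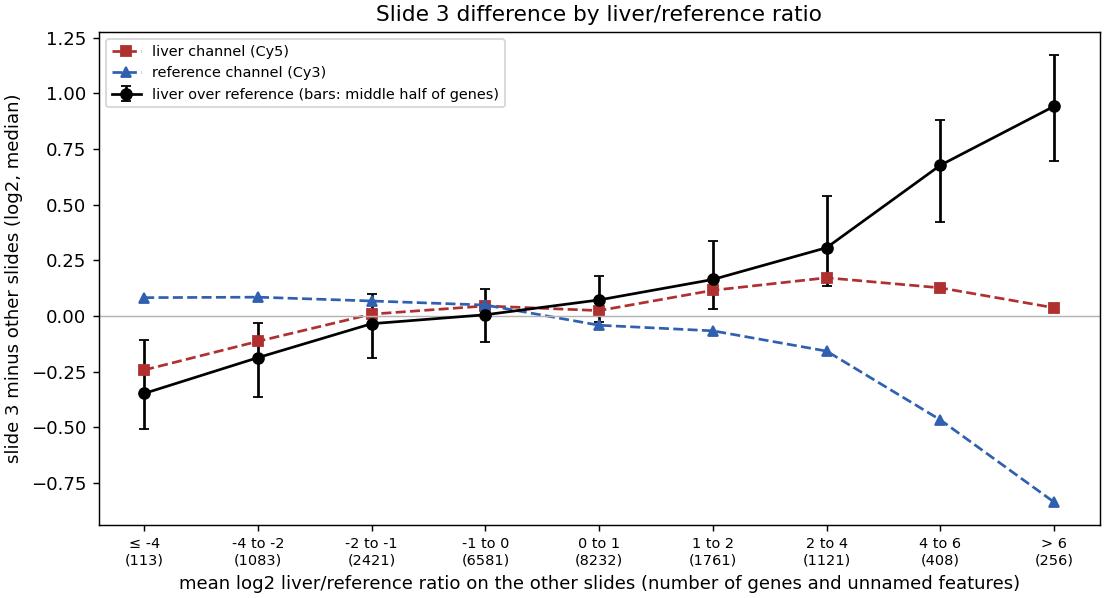
Median log2 difference between slide 3 and the other slides in bins of the mean log2 ratio, with the liver and reference parts. The total reaches 0.94 in the highest bin, where the liver part is 0.04 and the reference part -0.84, and is -0.35 in the lowest, where the liver part is -0.24 and the reference part 0.08.

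The 807 higher features had a lower reference level in 797 cases and a higher liver level in 665, and the reference part was the larger one in 467. Their median liver part was 0.29 and their median reference part -0.48. By the same rule on the reference channel alone, quantile-normalized between arrays, slide 3 had 333 features lower, 1.52% of those tested, and 0 higher, 0%. Of the 807 features, 239 were among those 333. In the liver channel alone, treated likewise, 12 features were higher on slide 3, 0.0546%, and 205 lower, 0.933%. Only 9 of the 807 were among those 12. The 205 had a lower reference level too in 203 cases, with medians of -0.67 in the liver channel and -0.57 in the reference channel.

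The reference RNA was the same on all arrays, as far as the labels say. Dim reference spots and a bright Cy5 channel were both found on slide 3. The slide 4 array at 8 mg/kg had a mean Cy5 intensity of 2918 and a hepatocyte reference level of 9.51. The slide 3 control array had 2906 and 8.59. The part of Cy5 brightness, of scan day or of labelling in the result was not tested. With the mean Cy5 intensity as a covariate, the hepatocyte median was 0.89 in place of 1.34. Set against the 2 bright arrays of slide 4 alone it was 0.95. When every array's log ratios were scaled to a common spread, the median was 0.38, and 75 features were higher and 26 lower on slide 3, 48 and 9 of them shared with the counts above.

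**Figure D4:**
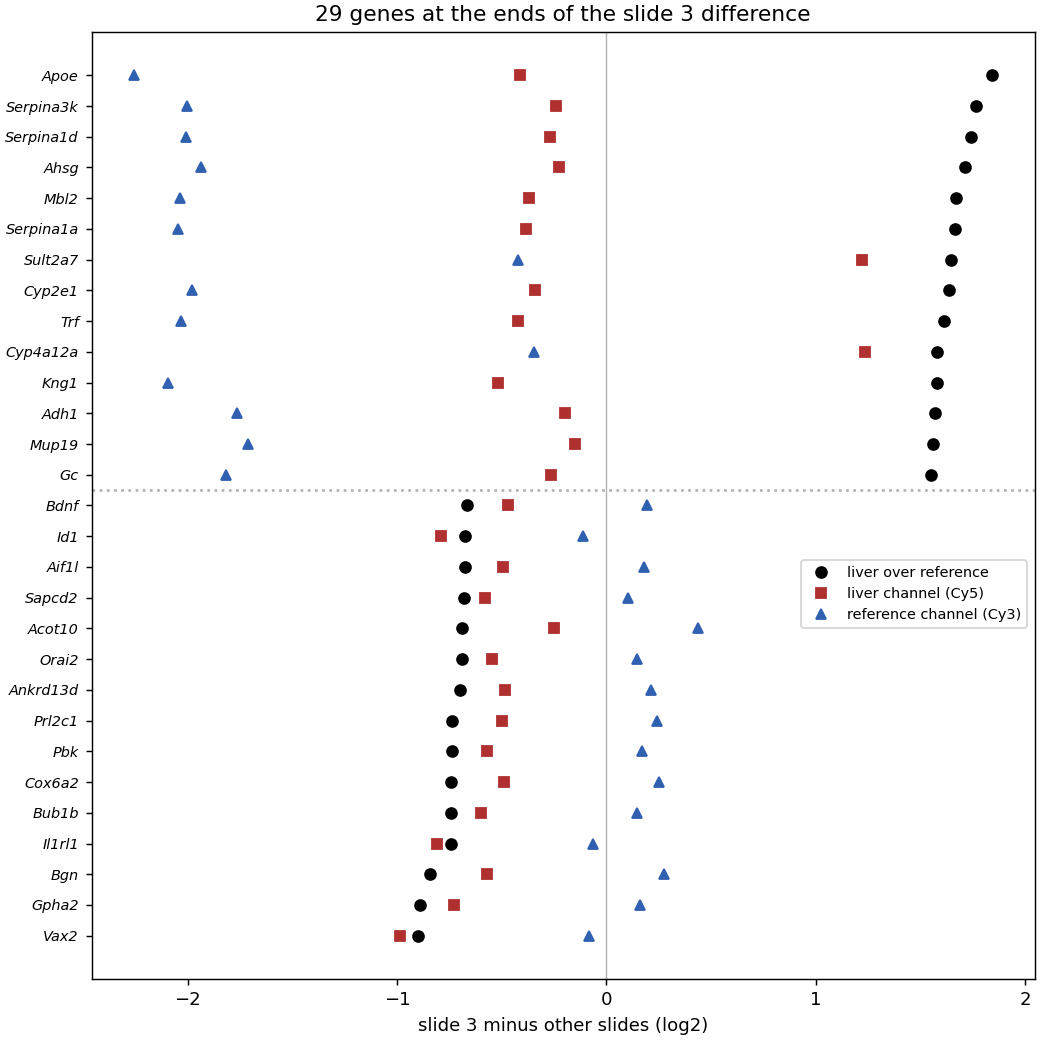
Liver part and reference part (log2) beside the log ratio difference between slide 3 and the other slides, for 14 of the highest genes (above the dotted line) and the 15 lowest of those well above background on at least 9 of the other 11 arrays, 1 gene a row. Of the 14, 12 have reference parts of -2.25 to -1.71. Sult2a7 and Cyp4a12a, whose reference spots were near background on every array, have liver parts of 1.22 and 1.23.

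A small set of genes was higher on slide 3 in the liver channel itself. Of the 12 such features, 7 had a symbol and were chosen after their values were seen: Mt2, Sult2a7, G6pc, Megf9, Slc25a25, Ppargc1a and Fst. Of these, Ppargc1a and Fst were not set apart in the log ratio. Metallothioneins Mt1 and Mt2 are small cysteine-rich proteins that bind zinc and cadmium, and their genes respond to metals, glucocorticoids and stress through short promoter elements. The 250 bases upstream of both starts are given, from RefSeq on GRCm38.p6, because both genes were higher on slide 3 and lie beside each other. Mt1 is at chr8:94178839-94179088 and Mt2 at chr8:94172368-94172617, both on the plus strand. Capitals mark matches to the metal response element core, searched on both strands as TGCGCNC and as TGCACNC.
Mt1: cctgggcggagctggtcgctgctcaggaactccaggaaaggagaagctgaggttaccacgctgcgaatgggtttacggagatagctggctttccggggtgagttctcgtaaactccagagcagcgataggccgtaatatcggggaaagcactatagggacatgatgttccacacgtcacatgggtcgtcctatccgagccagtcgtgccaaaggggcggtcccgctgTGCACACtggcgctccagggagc
Mt2: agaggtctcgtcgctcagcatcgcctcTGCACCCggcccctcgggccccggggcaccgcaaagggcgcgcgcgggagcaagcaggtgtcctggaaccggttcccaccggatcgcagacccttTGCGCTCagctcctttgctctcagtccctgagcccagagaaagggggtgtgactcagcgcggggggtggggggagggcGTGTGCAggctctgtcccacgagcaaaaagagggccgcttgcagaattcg
The window of Mt1 held 0 matches to the first form and 1 to the second, and that of Mt2 held 1 and 2. Only the 250 bases before each RefSeq start were searched, and the start used in liver was not checked. Elements outside these windows were not counted, so the counts do not describe the whole promoters. Of 32851 mouse promoter windows of this length, 12.5% held the first form and 10.4% the second, and a match is no evidence of binding.

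Mt2 had log ratios of 1.19, 2.17 and 0.46 on slide 3 in dose order, against -0.65 to 1.11 with a median of -0.25 elsewhere. Its liver level was 16.95, 17.46 and 16.39, against 15.48 to 17.01, and its raw Cy5 intensity 139221, 221256 and 107718, against 27041 to 117139. The mouse at 1 mg/kg was the highest of all 14, and the slide 3 array at 8 mg/kg lay inside the range of the other slides, though above the arrays of its own dose. The fitted difference of Mt2 was 1.36 ± 0.28, with 1.00 from the liver and -0.37 from the reference. After scaling of spreads it was 1.24.

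Mt1 followed with log ratios of 1.07, 2.08 and 0.61 on slide 3, against -0.43 to 1.36, and a difference of 0.94 ± 0.31. Its liver part was 0.64. The mouse at 1 mg/kg again stood highest, and the other 2 overlapped the other slides. Hamp, the iron hormone hepcidin, differed by 1.24, but its liver part was 0.08.

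Of 25 genes of the fasting and insulin response, 2 were higher in the liver channel alone, G6pc and Ppargc1a, and the median liver part of the list was 0.07. G6pc, the phosphatase that releases free glucose, had log ratios of 7.04, 6.97 and 6.73 on slide 3, against 5.48 to 6.02 with a median of 5.70. Its liver level was 15.72, 15.04 and 14.79, against 14.02 to 14.93, and its raw Cy5 intensity 65105, 46287 and 40173, against 10795 to 32885. The ratios did not overlap, and in level the mouse at 8 mg/kg fell just inside the range of the others. The G6pc difference was 1.20 ± 0.12 with a liver part of 0.71, and 0.39 after scaling of spreads.

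Igfbp1, not among those 12 features, is an insulin-repressed binding protein of IGF1. It had log ratios of 7.42, 7.56 and 7.99 on slide 3, against 5.38 to 7.63, with a difference of 1.43 ± 0.25 and a liver part of 0.76. Its raw Cy3 intensity was 38, 36 and 43.5 on slide 3, against 36 to 150.5. With a mean local Cy3 background of 22.2 to 27.6, its reference part on slide 3 rests on spots near background. Ppargc1a, a coactivator of gluconeogenic genes, differed by 0.73 ± 0.27, with 0.77 from the liver. Its log ratios of 2.61, 2.20 and 3.38 overlapped those of the other slides, 1.23 to 2.44. Its raw Cy3 intensity was 548, 434 and 197 on slide 3, against 182 to 360, so the array with the highest ratio had the dimmest reference spot of the 3. By contrast Pck1, the committed enzyme of gluconeogenesis, differed by 1.25 with a liver part near 0. By log ratio 8 of the 25 genes of the list were higher, with a median of 0.25.

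Sult2a7 and Cyp4a12a are sex-biased liver genes, the first a sulfotransferase and the second a male-biased fatty acid hydroxylase. Sult2a7 had log ratios of 4.94, 4.25 and 5.59 on slide 3, against 2.81 to 4.27 with a median of 3.18. Cyp4a12a had 2.93, 3.85 and 3.39, against 0.60 to 2.81 with a median of 1.79. The raw Cy5 intensity of Cyp4a12a was low, 379, 836 and 639 on slide 3 against 100.0 to 526. Sult2a7 overlapped the other slides by 1 array and Cyp4a12a by none. Of the 30 sex-biased genes 12 were higher with a median of 0.59. Mup3, for example, differed by 1.21 with a liver part of -0.33. Among PPARA targets, the fatty acid hydroxylase gene Cyp4a10 was highest at 1.49 with a liver part of 0.62.

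Markers of other liver cells were set apart on slide 3 in part, where 3.67% of all features were higher by log ratio. In the liver channel alone, quantile-normalized between arrays, 0 of the Kupffer, endothelial, stellate, cholangiocyte or T and NK markers were higher. Only 0.0546% of all features were higher there, so nothing is read from that 0. Of 23 Kupffer cell and macrophage markers 9 were higher, with a median of 0.47, a liver part of 0.34 and a reference part of -0.05. Clec4f, a lectin of Kupffer cells, had log ratios of 7.07, 7.10 and 6.93 on slide 3, against 5.77 to 6.33, and a difference of 1.00 ± 0.11. Its liver level was 12.96, 13.10 and 12.84, against 12.20 to 12.76, and after scaling of spreads the difference was 0.17. The complement genes C1qb and C1qc, made by macrophages, differed by 0.85 and 0.82. The summed liver level of the list was 65146 to 76478 on slide 3, against 49934 to 67695. In bulk tissue, fewer or more cells of a type and less or more RNA per cell cannot be told apart.

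Sinusoidal endothelial markers had 5 of 24 higher with a median of 0.47, led by Clec4g at 1.07, and their summed liver level was 43323 to 51278, against 32247 to 53134. Stellate cell markers had 1 of 19 higher with a median of 0.35. T and NK cell markers had 1 higher and 1 lower of 14 with a median of -0.11, and 9 of that list, among them Cd8a, were not measured. For exocrine pancreas 21 of 32 genes were not measured, Prss1 and Cpa1 among them, and the summed level of the rest was 3468 to 4861 on slide 3, against 2884 to 5468. For skeletal muscle 7 of 15 were not measured, Ckm among them. The part of these cells in the slide 3 difference was not tested.

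The features lower on slide 3 were mostly those with less signal in liver than in the reference: 15, 48, 32 and 12 of them had mean log ratios at or below -4, from -4 to -2, from -2 to -1 and from -1 to 0. All 114 had a lower liver level, and the liver part was the larger in 99; the medians were -0.46 for the liver and 0.21 for the reference. Vax2, a homeobox gene of the eye, differed by -0.90 ± 0.25, the lowest value among genes well above background on at least 9 of the other 11 arrays, with log ratios of -0.81, -0.91 and -0.65 on slide 3, against -0.39 to 0.72 with a median of -0.003. Its liver level was 8.39, 8.18 and 8.37, against 8.69 to 10.01. Both normalized measures of Vax2 were below those of every other array. Its raw Cy5 intensity of 361, 357 and 435 on slide 3 overlapped the 256 to 680 of the others.

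Bgn, the matrix proteoglycan biglycan, differed by -0.84, Gpha2, a glycoprotein hormone subunit, by -0.89, and Il1rl1, the receptor of interleukin 33, by -0.74. Bub1b, a kinase of the spindle checkpoint, had log ratios of -3.86, -3.95 and -3.81 on slide 3, against -3.58 to -2.81, and a difference of -0.74 ± 0.14. In raw Cy5 intensity, however, Bub1b read 100.0, 103 and 114 on slide 3, against 88.0 to 115, so the unnormalized liver spots overlapped. The mean local Cy5 background was 74.6 to 76.9 on slide 3, so these Bub1b signals lay close to background. Il1rl1 read 159, 169 and 184, against 115 to 204. Id1, an inhibitor of helix-loop-helix factors induced by BMP signals, differed by -0.68 with a liver part of -0.79.

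Mitosis genes as a list had a median difference of -0.35, with 0 higher and 3 lower of 30, namely Nusap1 at -0.77, Bub1b at -0.74 and Kif11 at -0.68. S phase genes had 1 lower of 34 with a median of -0.10. Over all features 0.519% were lower, and 4.43% of those with a mean ratio of -4 to -2. The median ratio was -3.18 for mitosis genes and -2.78 for S phase genes, so nothing is read from these counts. The sign of the mitosis median turned with scaling to a common spread, 0.06, and with the Cy5 covariate, 0.26. Cholangiocyte markers had 1 higher and 2 lower of 21, the lower ones being Krt7 at -0.94 and Epcam at -0.62. Krt7 and Nusap1 were well above background on 8 and 7 of the other 11 arrays.

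The other 11 arrays also differed among themselves by slide. In a moderated F test among slides 1, 2, 4 and 5 with dose in the model (limma), 491 features had an adjusted p under 0.05, 2.23% of those tested. Their own first component explained 28.0% of their variance, and the slide 3 arrays projected onto it at 18.7, 16.7 and 17.9, against -28.0 to 19.8 over the other arrays. On that axis slide 3 lay beside the bright arrays of slide 4. The difference of slide 3 correlated with the loading of this axis at r = 0.42 across genes, a description with no test. Of the 16 hepatocyte markers, 9 passed the F test.

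Cyp2r1, a vitamin D 25-hydroxylase, shows the pattern across all slides. Its log ratio was 3.78, 3.96 and 3.61 on the slide 3 arrays in dose order, against fitted control levels of 2.36 on slide 1, 2.31 on slide 2, 3.31 on slide 4 and 2.84 on slide 5. Its liver level was 11.83, 11.77 and 11.72 on slide 3, against 11.42 to 11.99, while its reference level was 8.04, 7.81 and 8.11, against 7.98 to 9.63. Cyp2r1 thus varied among slides mainly in the reference channel. Mup6, a major urinary protein, varied in another way, with 4.80, 4.21 and 4.53 on slide 3, against fitted levels of 3.57 on slide 4 and 5.30 to 6.05 on slides 1, 2 and 5. In the keratin gene Krt80 slide 3 had 1.66, 1.88 and 1.36, against fitted levels of 1.28 to 1.40 on slides 1, 2 and 4 and 3.13 on slide 5, which stood apart.

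The effect of furan was compared with and without slide 3. On the other slides 392 features passed for 8 mg/kg against control (limma with slide as a block, adjusted p under 0.05), 1.78% of those tested, with 289 higher and 103 lower. On all slides 872 passed, 3.97%, with 577 higher and 295 lower; 342 passed in both, 530 on all slides only and 50 on the other slides only. The comparisons share arrays, and the larger one has 3 more. Leaving out slide 1, 2, 4 or 5 in place of slide 3 gave 219, 362, 565 and 537. For 1 mg/kg against control on the other slides 0 features passed, 0% (limma; 1935 had an unadjusted p under 0.05, and the smallest adjusted p was 0.418).

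The slide 3 mice mostly moved in the same direction as the others at 8 mg/kg. Of the 289 features higher on the other slides, 259 had a positive difference between the 8 mg/kg and the control mouse of slide 3, with a median of 0.43 on slide 3 and 0.60 on the others. Of the 103 lower ones, 90 had a negative difference on slide 3, with medians of -0.61 and -0.61. Over all features 45.1% were positive on slide 3.

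Gsta1, a glutathione transferase of the NRF2 response, differed by 2.46 between the 8 mg/kg and the control mouse on slide 3, and by 3.77 on the other slides (limma, adjusted p = 0.000844 there). Cdkn1a, the p53-induced cell cycle inhibitor, differed by 2.08 on slide 3 and 2.23 on the others. Afp, the fetal plasma protein alpha-fetoprotein, differed by 1.90 and 1.90. Sult3a1, a sulfotransferase, was lower by both, -1.87 and -1.67. Csad, which makes taurine, was at 0.22 on slide 3 and -1.05 on the others. On slide 3 each of these values rests on 1 mouse a group.

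**Figure D5:**
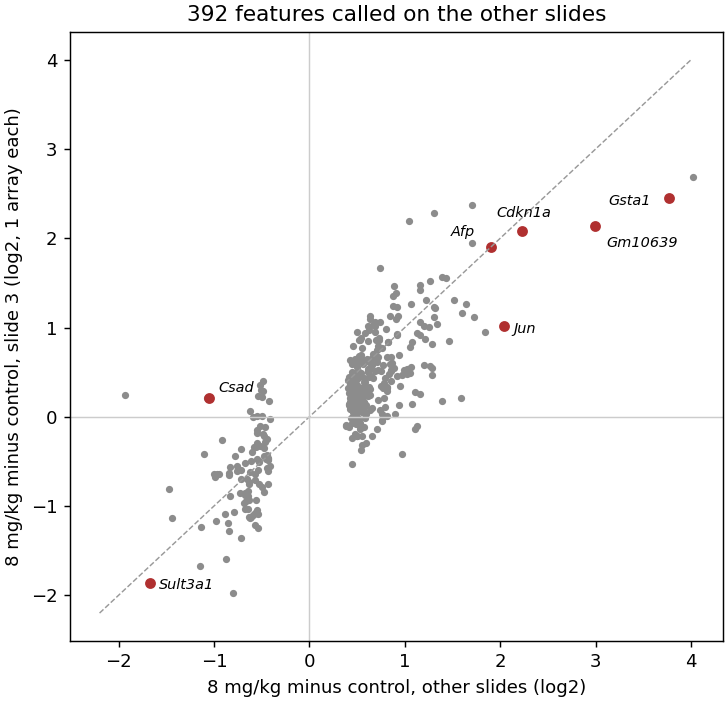
Log2 difference between 8 mg/kg and control on slide 3 (1 mouse each) against the same difference on the other slides, for the 392 features that passed on the other slides; the line marks equal values. Of 289 higher features 259 are positive on slide 3, and of 103 lower ones 90 are negative.

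A test of the difference itself, the interaction of 8 mg/kg with slide 3, called 30 features (limma, adjusted p under 0.05), 0.137%, 28 of them more positive on slide 3. Each slide 3 dose group is 1 mouse, assumed to vary like the others. The count depended on the processing: it was 0 with the scanner's processed signals (limma; 1625 at an unadjusted p under 0.05), 1 in the liver channel alone, 2 with scaled log ratios, 1 with the replicate number as a block, and 4 to 64 on leaving out 1 array. The reference part was the larger one in all 30, with a median of -1.81 and a median liver part of 0.01. Of these, 4 had a symbol. Hmgb1, a chromatin protein, was larger by 1.84 (adjusted p = 0.0295), Gm5176 by 1.90 (0.0395) and Oga, which removes O-linked N-acetylglucosamine, by 1.45 (0.0395). Snrpd1, a core splicing protein, was called too, but its spot on the slide 3 control array was near background in both channels, so its size is not a measured response.

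The reference channel differed between the arrays of slide 3 in these genes. For Hmgb1 the raw Cy3 intensity was 35830, 32161 and 9481 on slide 3 in dose order, against 6280 to 17283, and the Cy5 intensity was 11135, 9814 and 11321. The array at 8 mg/kg was the lowest of the 3 in Cy3 but lay inside the range of the other slides. The control and 1 mg/kg arrays of slide 3 lay above every array of the other slides. The 3 Cy5 values lay close together. For Snrpd1 the control array read 76.5 in Cy5 and 23.5 in Cy3, near background, against 9206 to 15305 in Cy3 on the other slides. Across all features, the reference level of the 8 mg/kg array minus that of the control array had an SD of 0.293 on slide 3, against 0.134 to 0.166 on slides 1, 2 and 4, and 152 features differed by at least 2-fold, against 10 to 19. For 1 mg/kg minus control the SD was 0.129 on slide 3, within the 0.120 to 0.158 of the others.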

How the data were processed

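Liver RNA (Cy5) and a universal reference RNA (Cy3) were hybridised to 2-colour Agilent mouse arrays in 1 dye orientation; per the design text, mice were biological replicates in randomized blocks. Slide and scan order were read from the headers. Per the file headers, the authors' deposited scanner files hold median spot intensity and background intensity from Feature Extraction. The scanner's log10 ratios, in the same deposited files, and the linear ratios that the authors deposited (normalization not given in the sources used here; r of 0.992 to 0.995 with the log2 ratios here) served as checks or alternatives.

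Median intensities were corrected by normexp (offset 50) and normalized by loess within arrays with limma 3.58.1 in R 4.3.3; 178 to 336 flagged spots per array were left out, and none was saturated. Of 55681 probes, 28867 had a liver signal well above background on at least 4 of 14 arrays. The probe with the highest mean liver signal stood for a gene. Names and promoters came from RefSeq tables of GRCm38.p6, which named 26413 probes; the headers refer to mm9, and no probe position is given. Channel levels came from the same ratios after Aquantile normalization, and counts in 1 channel alone from levels quantile-normalized between arrays. Other software was data.table (version 1.17.8), pandas 2.3.3 and matplotlib 3.10.9 in Python 3.11.15. Number of arrays limits the precision. The tests were checked on simulated data.

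The slide 3 contrast was not tested. Other tests used lmFit and eBayes with Benjamini-Hochberg adjustment at 0.05 over all 21976 features. Slide was a block in the dose and interaction tests. In the F test slide was the tested effect, with dose in the model. The members, lists and rules were chosen with earlier results of these data known. Named genes were the 15 highest and 15 lowest set-apart genes (with liver signal well above background on all slide 3 arrays for higher genes, and on at least 9 of the other 11 for lower ones), up to 4 members per list with the largest difference and any list member set apart, the 10 highest loadings of each component, the 6 smallest p-values of the interaction and F tests, and leading dose genes; Mt2, G6pc and others are said to be chosen after their values were seen. A gene that this rule names is not reported here. Replicate numbers were not treated as pairs of mice. Over 13 pairs of the same number, deviations correlated at -0.43 to 0.25. Pairs on the same slide gave 0.087 to 0.245 and pairs on different slides -0.43 to 0.23. Most pairs were on different slides, so these values cannot show whether the numbers pair mice. Alternatives were other background corrections, filters, scalings, single channels, and leaving out arrays or slides.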

Additional observations from a re-analysis of the deposited data

Results flagged for a closer look

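Of 90 groups of arrays checked for a sample far from the rest of its dose group, 8 held one. Chance alone would give about 1 in 20 groups, but many of these genes were chosen for small p-values between slides, so that rate does not apply to them. On slide 3 these were 3: Snrpd1 in the control group, with a gap of 0.838 of the group's range (log ratio 0.18, the nearest other array -1.60), Oga at 8 mg/kg with 0.789 (0.83, nearest -0.25) and Acin1 at 8 mg/kg with 0.771 (1.04, nearest 0.01). On slide 5 the arrays lay high in Krt80, with 0.737 at 1 mg/kg and 0.804 at 8 mg/kg, and in Stum, with 0.91 and 0.827. On slide 2 the array at 1 mg/kg lay low in Cyp26b1 with 0.805.

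In the interaction test, the log ratio difference between 8 mg/kg and control on slide 3 departed from that of the other slides in 4 named genes: Snrpd1 by -1.97, Hmgb1 by 1.84, Gm5176 by 1.90 and Oga by 1.45 (log2). In all 4 the reference channel held the larger part, and the Snrpd1 value rests on a control spot near background.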

How the results depend on the processing

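The slide 3 count of 921 features (807 higher, 114 lower) was 217 in the liver channel alone (12 and 205), 333 and 0 in the reference channel alone with its sign turned, 101 with log ratios scaled (75 and 26), 501 with a Cy5 covariate chosen after seeing the data (479 and 22), and 192 and 0 at 2-fold. The lower count alone moved to 69 with the scanner's processed signals, 252 without a dim filter and 33 with probes above background on all 14 arrays. Leaving out 1 array at a time gave 866 to 1194 features, 775 to 1029 higher and 91 to 196 lower. The 196 came without the 8 mg/kg array of slide 3, and the 1194 and 1029 without its 1 mg/kg array. Without a slide 3 array the rule was looser, since it asked only for the dose groups that remained. In the liver channel alone differences turned to -0.018 for Apoe, -0.19 for Mbl2, -0.042 for Cyp2e1, -0.070 for Trf, -0.27 for Kng1, -0.10 for Adh1 and 0.045 for Aif1l, and list medians to -0.00904 for hepatocyte markers, -0.044 for complement and coagulation, -0.0068 for P450s, -0.028 for pericentral and -0.0078 for sex-biased genes. In the reference channel Vax2 turned to 0.10, Il1rl1 to 0.016, Id1 to 0.14 and stellate markers to -0.052. Scaling turned Il1rl1 to 0.0034, fatty acid synthesis to -0.018 and mitosis to 0.065, and mitosis also turned to 0.26 with the Cy5 covariate and 0.095 against the bright arrays of slide 4. Causes were not tested.

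For 8 mg/kg against control, counts on the other slides (392) and on all slides (872) were 34 and 389 with processed signals, 592 and 1371 in the liver channel, 0 (limma; 2518 at an unadjusted p under 0.05) and 1 in the reference channel, and 245 and 276 without the slide block. The interaction (30) gave 19 without background correction, 19 with the mean of probes, 19 without the slide block, 0 with processed signals (limma; 1625 unadjusted), 1 in the liver channel, 4230 in the reference channel, 2 scaled and 58 without a dim filter. The F test among the other slides (491) gave 107, 2457, 11292, 1301 and 786 with processed signals, liver channel, reference channel, scaling and no dim filter. Leaving out arrays or slides gave 83 (without control replicate 1) to 459 for the other slides, 219, 362, 565 and 537 (without slides 1, 2, 4 and 5) and 311 (without 8 mg/kg replicate 1) to 844 for all slides, 4 (without 1 mg/kg replicate 1 or 8 mg/kg replicate 4) to 64 (without 8 mg/kg replicate 1) for the interaction, 65 (without 1 mg/kg replicate 2) to 482 for the F test and 0 to 21 (without control replicate 2) at 1 mg/kg.

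With the replicate number as a block, which is not known to pair the mice, the slide 3 count was 965. The 8 mg/kg counts were 92 on the other slides and 121 on all, with 1 for the interaction. The F test could not be fitted with this block.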
